A study of Mus musculus with 16 samples.

Results

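The genes described here are 40 genes of fatty acid oxidation and ketone synthesis, chosen by symbol, and all 40 were among the 12617 genes tested. By the compartment or pathway of their main product they were split into 24 mitochondrial genes, 9 peroxisomal genes, 2 ketone genes and 5 regulators and other genes. Their transcripts were measured by mRNA sequencing in livers of mice that all ate a Western diet for 8 weeks. In 8 livers the genotype label was Ctrl (control CRISPR, a gene editing method), and in 8 it was CYP7A1 (Cyp7a1 CRISPR). Cyp7a1 encodes the rate-limiting enzyme of the classical route from cholesterol to bile acids. The labels give no strain, sex, age, editing vector or batch, and whether every library came from its own animal is not said, which means that p-values here reflect only the spread among these samples.

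Fatty acids are activated to acyl-CoA, carried into mitochondria as acyl-carnitines by the carnitine shuttle, and shortened in cycles of dehydrogenation, hydration, dehydrogenation and thiolysis. Very long, branched and dicarboxylic acids are shortened first in peroxisomes. In fasting liver much of the acetyl-CoA that results is turned into the ketone bodies acetoacetate and 3-hydroxybutyrate. The nuclear receptor PPAR alpha, which binds fatty acids, switches on many genes of these routes together.

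Each value below is a normalized count, the read count of a gene scaled for the depth of its library, and group values are the lowest, median and highest of 8 libraries. Depth recovered from the values was 13.8 to 27.4 M reads per library (M, mega). The Cyp7a1 transcript was not lower in the livers labelled Cyp7a1. It lay at 2148, 3281 and 5642 in controls and at 3069, 4892 and 5873 in Cyp7a1-labelled livers, a log2 fold change of 0.43 ± 0.20 (SE, limma adjusted p = 0.227, exact permutation p = 0.0716, two-sided). A gene count says nothing about edits in the coding sequence, so every direction rests on the labels. All 9 hepatocyte markers looked for were in the table, and 0 of 10 Kupffer cell and macrophage, 0 of 8 stellate cell and 0 of 6 endothelial markers passed the test between groups in limma, edgeR or DESeq2, with 0, 0 and 2 at an unadjusted limma p under 0.05. Of the hepatocyte markers Tat rose (log2 fold change 0.84, limma adjusted p = 0.0466), and of 7 cholangiocyte markers Tff3 rose and Krt23 fell (3.63 and -2.15) without overlap between groups. In whole liver, fewer cells of a type and less RNA per cell cannot be told apart.

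In the Cyp7a1-labelled livers 3 of 40 rose, Hadhb and Etfa of mitochondrial oxidation and the peroxisomal transporter Abcd3. Another 3 fell, the acyl-CoA dehydrogenase Acad11, the ketone body enzyme Bdh1 and the pantetheinase Vnn1. Passing means a Benjamini-Hochberg adjusted p under 0.05 over all genes in limma, a linear model with moderated errors. Of all genes tested, 6.12% passed, 3.07% higher and 3.05% lower, against 15% of these 40, 7.5% in each direction. The changes were small, with log2 fold changes of 0.18 to 0.30 for the 3 that rose and of -0.54 to -0.19 for the 3 that fell. With quantile normalization (Hadhb higher, Vnn1 and Pecr lower) and with equal totals (Abcd3 higher, Acad11 and Pecr lower) the split was 1 higher and 2 lower. At a minimum change of 1.5-fold, 0 of 40 passed. For none of the 40 did the groups separate fully, where 1.04% of all genes had groups that did not overlap.

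Most fold changes pointed upward without passing. They were above 0 for 29 of 40 genes (72.5%), against 50.9% of all genes, and their median was 0.07 against 0.0034. By subset the fold change was above 0 for 20 of 24 mitochondrial genes (median 0.11), 6 of 9 peroxisomal genes (median 0.04), 1 of 2 ketone genes (median -0.12) and 2 of 5 regulators and other genes (median -0.06). An unadjusted p under 0.05 was reached by 14 of the 40 and by 2589 of all genes. The genes are not replicates, and how far they vary together between livers was not tested, so the counts are a description. Among the 34 genes that did not pass, the 95% interval of the fold change lay within 1.5-fold in either direction for 29, the others being Pdk4, Acot2, Acot3, Crat and Fgf21.

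**Figure D1:**
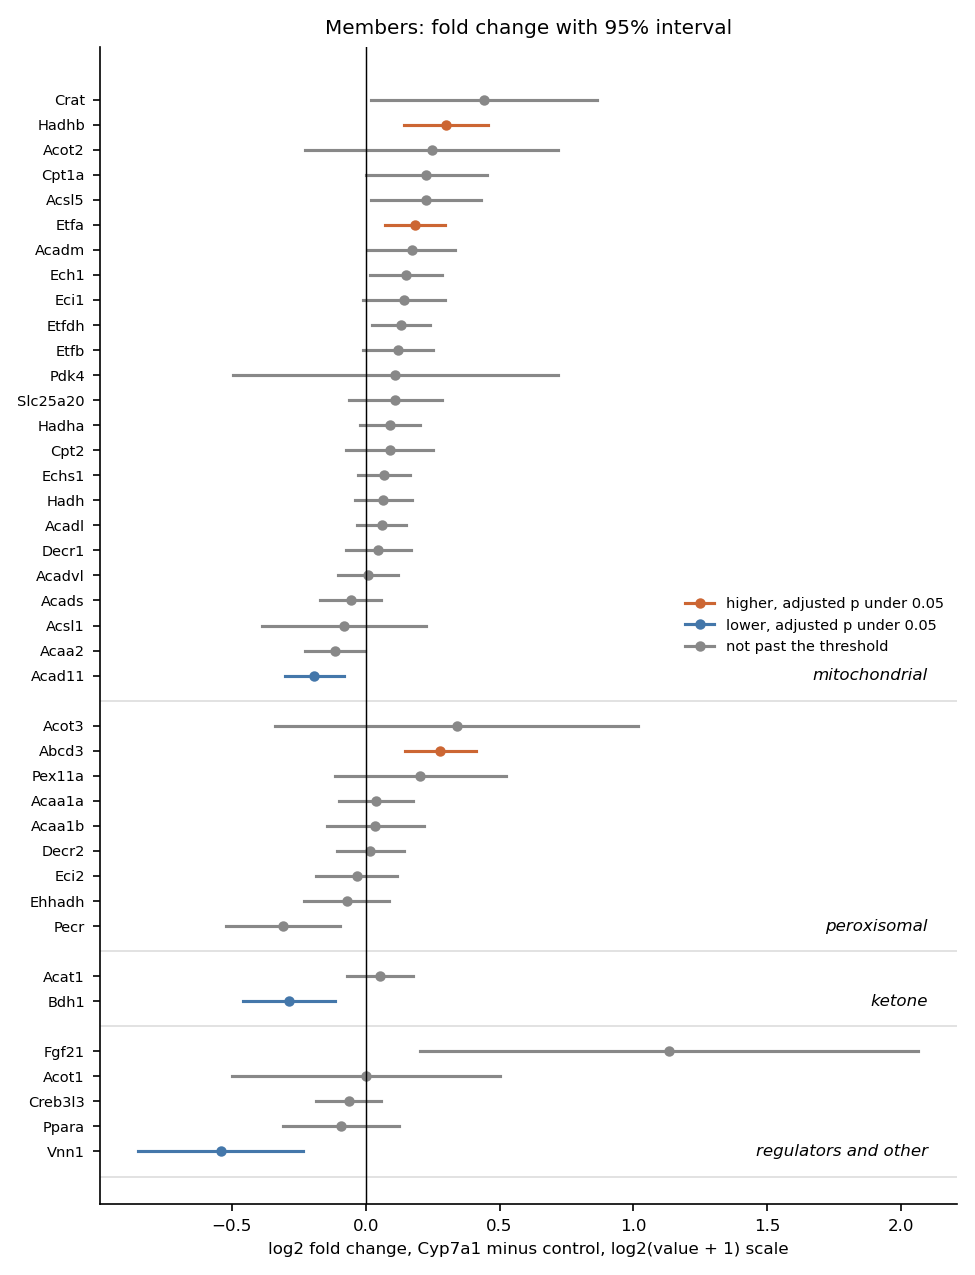
Log2 fold change of Cyp7a1-labelled livers over controls, from log2(value + 1), with 95% interval for each of the 40 genes, grouped by subset. The 3 genes that rose (Hadhb, Etfa, Abcd3) and the 3 that fell (Acad11, Bdh1, Vnn1) are marked, and most mitochondrial genes sit slightly to the right of 0 with intervals that cross it or come close to it.

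Promoter sequence of Hadhb and Etfa, the mitochondrial genes that rose, is shown first. That of Abcd3, which rose as well, is not shown. Hadha and Hadhb, the alpha and beta subunits of the mitochondrial trifunctional protein, are read in opposite directions from start sites 86 bases apart in GENCODE M21, at chromosome 5, 30155162 and 30155248. The RefSeq starts on which the windows are built, 30154980 and 30155253, are 273 bases apart. The stretch between the GENCODE starts, chr5:30155163-30155247 on the plus strand, has in capitals the 68 bases that lie in the promoter windows of both genes.

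Hadha-Hadhb: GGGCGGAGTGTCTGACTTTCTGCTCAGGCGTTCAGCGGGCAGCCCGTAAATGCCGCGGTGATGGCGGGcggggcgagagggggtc

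Etfa is shown with the 250 bases before its RefSeq start site, chr9:55512244-55512493 on the minus strand, written 5′ to 3′ in the direction of the gene. The capitals mark a match, on the opposite strand and with at most 2 mismatches, to a direct repeat of AGGTCA with 1 base of any kind between the copies, the element bound by PPAR alpha with its partner RXR.

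Etfa: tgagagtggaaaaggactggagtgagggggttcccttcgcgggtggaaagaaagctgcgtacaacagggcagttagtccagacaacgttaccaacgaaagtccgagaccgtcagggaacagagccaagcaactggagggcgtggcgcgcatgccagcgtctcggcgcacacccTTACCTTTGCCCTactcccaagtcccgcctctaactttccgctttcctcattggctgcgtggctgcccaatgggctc

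The sequences come from RefSeq promoters of GRCm38.p6, each window reaching 250 bases before and 50 after a start site. Among the 40 genes, 35 had an entry, and Acaa2, Acat1, Crat, Decr1 and Vnn1 had none. A match to this repeat on either strand with at most 2 mismatches stood in 4 of the 40 promoter windows of these 35 genes (10%), in 4 different genes, and in 1268 of 32851 windows of all genes (3.86%). With at most 1 mismatch the counts were 0 of 40 and 182 of 32851 (0.554%). Besides Etfa the 4 genes were Slc25a20 (chr9:108662134-108662162, plus strand), Echs1 (chr7:140116484-140116512, minus strand) and Creb3l3 (chr10:81092780-81092808, minus strand), shown here with the match in capitals.

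Slc25a20: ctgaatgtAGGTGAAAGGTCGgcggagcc
Echs1: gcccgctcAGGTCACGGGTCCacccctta
Creb3l3: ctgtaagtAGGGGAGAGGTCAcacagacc

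Of these 4 genes, Etfa alone passed the test between groups. Hadhb, Abcd3, Acad11 and Bdh1 passed as well, but their windows held no such match. Their closest stretches had 4, 4, 5 and 3 mismatches. Creb3l3 has 2 windows, and its match is in the one at chr10:81092542-81092841. The window at its GENCODE start, chr10:81098823-81099122, had 4 mismatches at best. A match of letters is a description of the window and not a binding site.

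The regulators came first in the chain and none of them passed. Ppara, which encodes PPAR alpha, lay at 2193, 2978 and 3271 normalized counts in controls and at 2093, 2844 and 3395 in Cyp7a1-labelled livers. The groups overlapped over nearly their whole range, and the log2 fold change was -0.09 ± 0.10 (SE, limma adjusted p = 0.681). Creb3l3, a liver transcription factor that acts together with PPAR alpha in fasting, had a log2 fold change of -0.06 ± 0.06 (limma adjusted p = 0.590).

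Fgf21, the fasting hormone that PPAR alpha and Creb3l3 induce, had the widest spread of the 40 genes. It lay at 10.5, 87.8 and 194 in controls and at 88.6, 142 and 248 in Cyp7a1-labelled livers, on 10 to 227 reads per library. The lowest Cyp7a1-labelled liver was above the control median, but the highest controls reached well into the other group. The log2 fold change of 1.13 ± 0.44 (SE, 95% interval 0.20 to 2.06) did not pass (limma adjusted p = 0.145). Without Control 20, the lowest library, and Cyp7a1 24, it was 0.81 (limma adjusted p = 0.160).

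Among 16 further regulators of oxidation 3 rose and 0 fell (18.75%, against 6.12% of all genes). Ppargc1a, the coactivator PGC-1 alpha of PPAR alpha and of mitochondrial genes, had 103 ± 17.5 normalized counts in controls and 167 ± 25.3 in Cyp7a1-labelled livers (SD, n = 8 each). All but 1 of the Cyp7a1-labelled livers were above the highest control, and the log2 fold change was 0.69 ± 0.11 (SE, limma adjusted p = 0.00175). Lpin1 and Lpin2 encode lipins, phosphatidate phosphatases, and lipin 1 is also a partner of PGC-1 alpha. Lpin1 rose by 0.93 ± 0.26 and Lpin2 by 0.35 ± 0.08 on the log2 scale (limma adjusted p = 0.0433 and 0.0182). Rxra, the partner of PPAR alpha on DNA, had a log2 fold change of -0.07 ± 0.06 (limma adjusted p = 0.561).

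The enzymes among the 40 genes that activate and carry fatty acids did not pass. Cpt1a makes acyl-carnitines at the outer mitochondrial membrane, the main control point of oxidation, and lay at 15844, 21612 and 25168 in controls and at 19479.8, 24014 and 32798 in Cyp7a1-labelled livers. Of the Cyp7a1-labelled livers 7 of 8 were above the control mean and 3 were above every control, and the log2 fold change was 0.23 ± 0.11 (SE, 95% interval -0.00 to 0.45, limma adjusted p = 0.246). The carnitine acyl-carnitine carrier Slc25a20 and the inner membrane enzyme Cpt2 had log2 fold changes of 0.11 ± 0.08 and 0.09 ± 0.08. Crat, which exchanges short acyl groups on carnitine, had one of 0.44 ± 0.20 (limma adjusted p = 0.220). Its lowest control, Control 20 at 1250.0, lay far under the other controls, and without Control 20 and Cyp7a1 24 its log2 fold change was 0.31.

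The long-chain acyl-CoA synthetases differed among themselves. Acsl1, the main liver isoform, had a log2 fold change of -0.08 ± 0.15 and Acsl5 of 0.22 ± 0.10 (limma adjusted p = 0.822 and 0.200). Acsl4, an isoform that prefers arachidonic acid and is listed here among 22 further mitochondrial oxidation genes, lay at 452, 639 and 747 in controls and at 852, 1013 and 1172 in Cyp7a1-labelled livers. These groups did not overlap, and the log2 fold change was 0.71 ± 0.10 (SE, limma adjusted p = 0.000403). Acsl3, which activates fatty acids at lipid droplets and the endoplasmic reticulum, rose by 0.51 ± 0.13 (limma adjusted p = 0.0289). The other calls in that list were Acad10, a dehydrogenase family member, and the thioesterase Acot11. Acad10 rose by 0.21 ± 0.05 (limma adjusted p = 0.0192), and Acot11 fell by 0.55 on the log2 scale (limma adjusted p = 0.0409). This gave 3 higher and 1 lower of 22 (18.2%, against 6.12% of all genes). In edgeR, which did not call Acot11, the counts were 3 and 0. The mitochondrial acetyl-CoA carboxylase Acacb, whose product inhibits Cpt1a, did not pass (log2 fold change 0.45 ± 0.20, limma adjusted p = 0.202). The muscle isoform Cpt1b was not analysed here.

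Of the 5 acyl-CoA dehydrogenases among the 40 genes, which open each cycle, Acad11 alone passed. Acad11, counted here with the mitochondrial genes, prefers very long acyl chains and also handles hydroxy fatty acids. It lay at 11457, 12101 and 13429 in controls and at 9949, 10499 and 12168 in Cyp7a1-labelled livers. None of the 8 Cyp7a1-labelled livers was above the control mean, and 6 were under every control. Its log2 fold change was -0.19 ± 0.05 (SE, 95% interval -0.30 to -0.08, limma adjusted p = 0.0360), from a mean of 12232 ± 718 to 10716 ± 744 (SD, n = 8 each). The call was lost when Control 12, 16 or 25 or Cyp7a1 2, 5, 24, 26, 28 or 36 was left out, at adjusted p values of 0.0580 to 0.0735, and with quantile normalization (0.0668). Acad11 (chromosome 9, 104063377 to 104127725 on mm10, plus strand) shares 14.8% of the 50-base words of its longest coding transcript with Ackr4 and Gm28305.

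Medium-chain Acadm, the enzyme lost in the commonest human defect of oxidation, lay at 8937, 10494 and 12130.5 in controls and at 9989.9, 11584 and 13701 in Cyp7a1-labelled livers. Its groups overlapped and its log2 fold change was 0.17 ± 0.08 (SE, limma adjusted p = 0.218). Those of long-chain Acadl, very-long-chain Acadvl and short-chain Acads were 0.06, 0.01 and -0.06, with adjusted p values of 0.478, 0.957 and 0.619 in limma. For Acadvl 42.9% of exon bases are overlapped by Dvl2 on the other strand.

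Electrons from the mitochondrial acyl-CoA dehydrogenases pass through the electron transfer flavoprotein, made of Etfa and Etfb, to its membrane oxidoreductase Etfdh. Etfa (chromosome 9, 55454508 to 55512243, minus strand) lay at 4578, 5739 and 6247 in controls and at 6156, 6352 and 6765 in Cyp7a1-labelled livers. All 8 Cyp7a1-labelled livers were above the control mean and 6 were above every control. The log2 fold change was 0.18 ± 0.05 (SE, 95% interval 0.07 to 0.30, limma adjusted p = 0.0486). This was the call closest to the threshold: it was lost in edgeR (adjusted p = 0.0589), with quantile normalization (0.0755), with equal totals (0.0916), and when any library other than Control 20 or Control 38 was left out (0.0542 to 0.0850).

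Etfdh and Etfb had fold changes close to that of Etfa without passing. Etfdh lay at 6619, 7085 and 8249 in controls and at 7379, 7793 and 8709 in Cyp7a1-labelled livers, with a log2 fold change of 0.13 ± 0.05 (SE, limma adjusted p = 0.150). Etfb had one of 0.12 ± 0.06 (limma adjusted p = 0.291), and 58.2% of its exon bases are overlapped on the same strand by Gm45233 and Mir7051, so its level is uncertain. All 8 Cyp7a1-labelled livers were above the control mean for Etfdh and 7 of 8 for Etfb. A test of whether Etfa changed more than Etfb within a liver did not pass. The ratio of Etfa to Etfb was 7.68, 8.33 and 9.77 in controls and 7.503, 8.92 and 10.5 in Cyp7a1-labelled livers (two-sided exact permutation p = 0.329).

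The trifunctional protein carries the later steps of the cycle for long chains, with the hydratase and 3-hydroxyacyl-CoA dehydrogenase on Hadha and the thiolase on Hadhb. Hadhb (chromosome 5, 30155248 to 30184593, plus strand) lay at 857, 1199.9 and 1323 in controls and at 1303, 1392 and 1491 in Cyp7a1-labelled livers. All 8 were above the control mean and 7 of them above every control. The log2 fold change was 0.30 ± 0.07 (SE, 95% interval 0.14 to 0.46, limma adjusted p = 0.0238), from 1145 ± 155 to 1398 ± 69.4 (SD, n = 8 each). With equal totals the adjusted p was 0.0837.

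Hadha, read in the other direction from the same stretch, lay at 11195, 12328 and 14002 in controls and at 12008, 13104 and 14289 in Cyp7a1-labelled livers. Of these 7 of 8 were above the control mean but only 1 was above every control, and the log2 fold change was 0.09 ± 0.05 (SE, limma adjusted p = 0.360). The ratio of Hadhb to Hadha within a library was 0.0716, 0.0915 and 0.105 in controls and 0.0963, 0.105 and 0.121 in Cyp7a1-labelled livers. The ratio was 1.16-fold higher in the Cyp7a1-labelled livers, with 8 of 8 above the control mean (two-sided exact permutation p = 0.00715, Benjamini-Hochberg adjusted p = 0.0143 over the 2 subunit ratios, which were chosen after the single-gene values were seen). With any 1 library left out the exact p was 0.00342 to 0.0176.

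Hadhb reads are partly shared with other genes, which limits both results. Of the 50-base words of its longest coding transcript, 62.4% also occur in Gm13910 or Gm9108. Its level per kilobase of exon, 193, was far under the 1462 of Hadha, although the subunits form 1 complex. Gm13910 rose as well, from 530 ± 58.1 to 627 ± 32.4 (SD, n = 8 each; log2 fold change 0.25 ± 0.06 SE, limma adjusted p = 0.0268). The part of this sharing in the Hadhb difference was not tested.

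**Figure D2:**
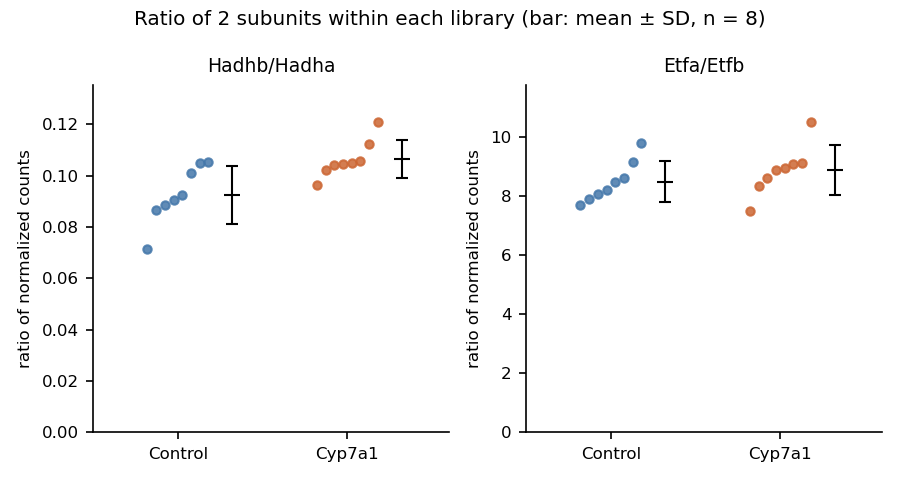
Ratio of normalized counts of 2 subunits of a complex within each library (points), with mean and SD of 8 libraries per group (bars), for Hadhb over Hadha and Etfa over Etfb. For Hadhb over Hadha 8 of 8 Cyp7a1-labelled livers lie above the control mean of 0.0926, while for Etfa over Etfb the groups cover nearly the same range.

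The enzymes for shorter chains and for unsaturated fatty acids had small fold changes. The short-chain hydratase Echs1 and the short-chain dehydrogenase Hadh had log2 fold changes of 0.07 each (limma adjusted p = 0.441 and 0.518). The thiolase Acaa2, which ends the cycle for medium chains, had one of -0.12 ± 0.05, with 0 of 8 Cyp7a1-labelled livers above the control mean, and did not pass (limma adjusted p = 0.231). The isomerases and reductase that handle double bonds, Ech1, Eci1 and Decr1, had log2 fold changes of 0.15, 0.14 and 0.05 (limma adjusted p = 0.181, 0.288 and 0.721). For Ech1 all 8 Cyp7a1-labelled livers were above the control mean, at 7494 to 9220.3 against 6503 to 8454 in controls.

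Among the peroxisomal genes Abcd3, which encodes the 70 kDa peroxisomal membrane protein that imports acyl-CoAs, was the 1 of 9 that passed. Abcd3 (chromosome 3, 121758774 to 121815302, minus strand) lay at 11322, 11829 and 13274 in controls and at 11692, 15211 and 16109 in Cyp7a1-labelled livers. In 7 of 8 Cyp7a1-labelled livers it was above every control, and the exception, Cyp7a1 36 at 11692, lay within the control range. The log2 fold change was 0.28 ± 0.06 (SE, 95% interval 0.15 to 0.41, limma adjusted p = 0.0149). Of the 6 calls this one was kept most often, in 24 of the 25 alternatives that set no minimum change, and was lost with quantile normalization (adjusted p = 0.0506) and at the 1.5-fold minimum. No other annotated gene overlaps its exons or shares its 50-base words.

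Abcd2, the paralog of Abcd3 that carries very-long-chain and polyunsaturated acyl-CoAs, also rose, as the 1 higher gene among 23 further peroxisomal oxidation genes. It lay at 107, 221 and 453 in controls and at 305, 410.3 and 471 in Cyp7a1-labelled livers, with a log2 fold change of 0.92 ± 0.22 (SE, limma adjusted p = 0.0192). All 8 Cyp7a1-labelled livers were above the control mean, while 7 were under the highest control. The 1 lower gene of that list, of which 8.70% passed against 6.12% of all genes, was Slc25a17, a peroxisomal carrier of CoA and other cofactors. It lay at 964, 1099 and 1193 in controls and at 776, 833 and 936 in Cyp7a1-labelled livers, without overlap (log2 fold change -0.37 ± 0.05 SE, limma adjusted p = 0.000652). Among 15 peroxisome biogenesis genes 2 rose and 0 fell (13.3%, against 6.12% of all genes), and 8 had a fold change below 0. Their median log2 fold change was -0.03. Pex2, 1 of those that rose, did so by 0.17 on the log2 scale (limma adjusted p = 0.0388).

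The other enzymes of the peroxisomal cycle among the 40 genes did not pass. The bifunctional hydratase and dehydrogenase Ehhadh lay at 9898, 11477 and 12492 in controls and at 9224, 10777 and 13759 in Cyp7a1-labelled livers, with a log2 fold change of -0.07 ± 0.08 (limma adjusted p = 0.660). Its highest library was a Cyp7a1-labelled one although 7 of that group were under the control mean. The thiolases Acaa1a and Acaa1b had log2 fold changes of 0.04 each, and they share 35.1% and 46.2% of their 50-base words, mostly with each other, so reads may be split between them. Those of the isomerase Eci2 and the reductase Decr2 were -0.03 and 0.02, and that of Pex11a, a PPAR alpha target that drives peroxisome division, was 0.20 ± 0.15 (limma adjusted p = 0.493).

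Pecr, the peroxisomal trans-2-enoyl-CoA reductase, which works in chain elongation, was the lowest of the peroxisomal genes by fold change. It lay at 2275, 2890.4 and 4011 in controls and at 2024, 2411 and 2536 in Cyp7a1-labelled livers. None of the 8 was above the control mean, yet 5 overlapped the control range, and the log2 fold change of -0.31 ± 0.10 (SE) did not pass (limma adjusted p = 0.0807). It passed under quantile normalization (0.0434), with equal totals (0.0216), in DESeq2 (0.0291), and in limma without Control 7 (0.0353) or Control 13 (0.0452), all as adjusted p.

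Of the 2 ketone genes Bdh1 fell and Acat1 did not pass. Bdh1, the mitochondrial enzyme that reduces acetoacetate to 3-hydroxybutyrate, lay at 5094, 6562 and 7430.3 in controls and at 4518, 5201 and 5916 in Cyp7a1-labelled livers. All 8 Cyp7a1-labelled livers were under the control mean and 4 were under every control. Bdh1 (chromosome 16, 31422280 to 31458901, plus strand) had a log2 fold change of -0.29 ± 0.08 (SE, 95% interval -0.46 to -0.11, limma adjusted p = 0.0464), from 6373 ± 892 to 5193 ± 466.3 (SD, n = 8 each). The call was lost with quantile normalization (adjusted p = 0.0948) and equal totals (0.105). It was also lost when any library other than Control 20, Control 35, Control 38 or Cyp7a1 26 was left out (0.0515 to 0.0926). Of its exon bases 13.7% are overlapped by the antisense gene Gm15743.

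Acat1, the thiolase that joins acetyl-CoA units into acetoacetyl-CoA at the start of the route, lay at 11910.2, 12617 and 13863 in controls and at 12017, 13108 and 15779 in Cyp7a1-labelled livers. Its log2 fold change was 0.05 ± 0.06 (SE, limma adjusted p = 0.674). Of 9 further genes of ketone synthesis, use and transport, 0 passed in limma, edgeR or DESeq2, and 3 had an unadjusted limma p under 0.05, Sirt5, Bdh2 and Aacs. Bdh2, a cytosolic dehydrogenase related to Bdh1, had a log2 fold change of -0.47 ± 0.17 (limma adjusted p = 0.122), and Aacs, which returns acetoacetate to lipid synthesis, one of -0.37 ± 0.16 (limma adjusted p = 0.185).

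Vnn1, a membrane pantetheinase that cuts pantetheine, a part of coenzyme A, into the vitamin pantothenate and cysteamine, is a known PPAR alpha target and had the largest fall of the 40 genes. It lay at 2012, 3515 and 4474 in controls and at 1571, 2411 and 2882 in Cyp7a1-labelled livers. All 8 Cyp7a1-labelled livers were under the control mean, but 7 were within the control range because Control 20, at 2012, lay far under the other controls, at 3124 to 4474. Vnn1 (chromosome 10, 23894688 to 23905343, plus strand) had a log2 fold change of -0.54 ± 0.15 (SE, 95% interval -0.85 to -0.23, limma adjusted p = 0.0372). Without Control 20 and Cyp7a1 24 it was -0.64 (limma adjusted p = 0.00626), and with equal totals the adjusted p was 0.0675. The call was lost when Control 7, 12, 13, 16, 35 or 38 or Cyp7a1 17, 24, 28 or 36 was left out alone (0.0550 to 0.0717).

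**Figure D3:**
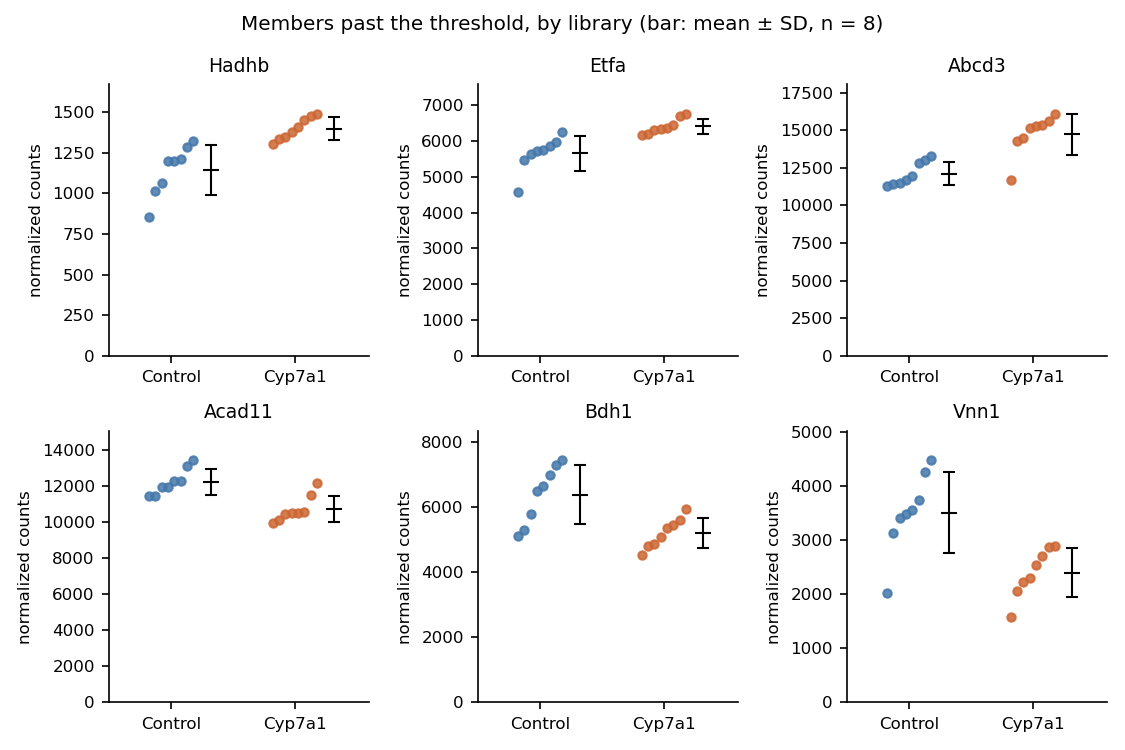
Normalized counts of the 6 genes past the threshold in each library (points), with group means and SD (bars, n = 8 each). Hadhb, Etfa and Abcd3 are higher and Acad11, Bdh1 and Vnn1 lower in the Cyp7a1-labelled livers, and the groups overlap for each of the 6 genes.

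The remaining PPAR alpha targets had wide spreads and no call. Pdk4, the kinase that turns off pyruvate dehydrogenase when fat is burned, lay at 169, 468 and 729 in controls and at 254, 364 and 720.1 in Cyp7a1-labelled livers (log2 fold change 0.11 ± 0.29 SE, limma adjusted p = 0.883). The acyl-CoA thioesterases Acot1 (cytosolic), Acot2 (mitochondrial) and Acot3 (peroxisomal) had log2 fold changes of 0.00 ± 0.24, 0.25 ± 0.22 and 0.34 ± 0.32 (limma adjusted p = 0.999, 0.595 and 0.615). They are neighbours on chromosome 12, within 64283 bases, and share 21.7% to 33.6% of their 50-base words with other genes, mostly of the same family, so their levels are uncertain.

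Over all 40 genes the typical spread between livers of a group was small, with a median within-group SD of 0.154 on the log2 scale against 0.174 over all genes tested. The highest library was less than 2-fold above the lowest for 30 of 40 genes and more than 3-fold for 6. These 6 were Fgf21 (23.7-fold, SD 0.99), Acot3 (6.51-fold), Crat (4.35-fold), Pdk4 (4.32-fold), Acot1 (3.59-fold) and Acot2 (3.23-fold). The spread of Fgf21 was larger in controls (SD 1.31) than in Cyp7a1-labelled livers (SD 0.50). Controls had the larger SD for 22 of 40 genes, near the 54.9% of all genes for which they did.

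A few libraries stood at the ends of many genes. Cyp7a1 19 was the highest of the 16 libraries for 15 of 40 genes, 10 of them mitochondrial, among them Cpt1a, Acadm, Hadha, Hadhb and Fgf21. Control 20 was the lowest for 10 genes, among them Cpt1a, Acadm, Hadha, Crat and Fgf21, and Cyp7a1 24 was the lowest for 10 others, among them Ppara, Acad11, Cpt2 and Acsl1. Control 38, the library with the fewest reads, was the lowest for 6, among them Hadhb and Etfa. Cyp7a1 24 also had the highest summed level of the 10 Kupffer cell and macrophage markers, 24596 normalized counts against 6298 to 13883 in the other 14 libraries besides Control 20. None of these 10 markers was at 0 in any library, and their sums were 7469 to 13883 in controls and 6298 to 24596 in Cyp7a1-labelled livers. Against the same 14 libraries Cyp7a1 24 was also highest for the lymphocyte markers (1035 against 133 to 673) and the cholangiocyte markers (3987 against 1185 to 3850). For the periportal markers it was lowest, 157270 against 162270 to 270395. Its hepatocyte, stellate cell and endothelial sums lay within the range of the 14. Control 20 also lay outside those 14 libraries in some marker sums. It was lowest for the stellate cell (6170 against 7650 to 14803) and cholangiocyte markers (1111 against 1185 to 3850). Cidec, the 1 adipocyte marker present, was at 410 in it against 1234 to 4328. Its hepatocyte sum was highest, 2.607e+06 against 1.771e+06 to 2.570e+06. Its macrophage and endothelial sums, 8581 and 7334, lay within the range of the 14. Without Control 20 and Cyp7a1 24, 2 of the 40 genes rose (Abcd3 and Etfa) and 2 fell (Vnn1 and Acad11). Over all genes, 383 were higher and 331 lower in that setting. Hadhb and Bdh1 had limma adjusted p values of 0.0574 and 0.0512 there. The 2 libraries left out are those named above as lowest for 10 of these same genes each, and Cyp7a1 19 was kept.

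**Figure D4:**
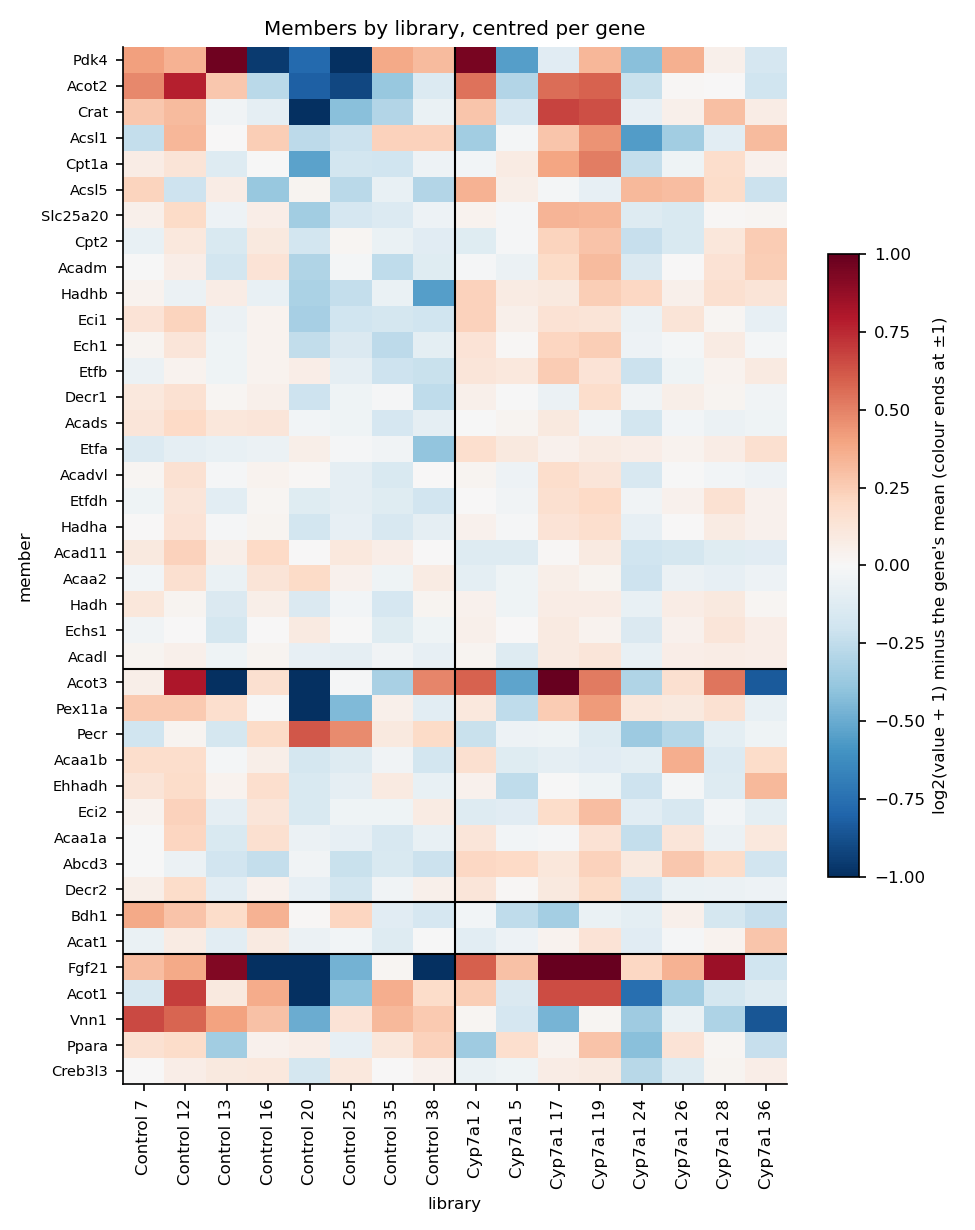
Log2(value + 1) of each of the 40 genes minus its mean over all 16 libraries, by library and subset. Cyp7a1 19 is high across many genes, Control 20 and Cyp7a1 24 are low across many, and Fgf21, Acot3 and Pdk4 vary most between livers of a group.

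Levels differed between genes far more than between groups. Per kilobase of exon, the highest mean normalized counts over all libraries were those of the thiolases Acaa1b (15590.0) and Acaa2 (12441), then of Acsl1 (4438), Ehhadh (3708) and Acadvl (3664). The lowest were those of Pdk4 (115), Fgf21 (131), Acot2 (179), Hadhb (193) and Acot1 (281). In sum the 40 genes took 1.59% ± 0.164 of the signal of a control library and 1.62% ± 0.0882 of that of a Cyp7a1-labelled one (SD, n = 8 each). The mitochondrial genes took 1.03% ± 0.105 and 1.06% ± 0.0702, and the peroxisomal genes 0.384% ± 0.0446 and 0.397% ± 0.0354. For the ketone genes the shares were 0.0931% ± 0.00873 and 0.0893% ± 0.00585. The difference between group means was smaller than the SD of the controls for each of these 4 shares.

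**Figure D5:**
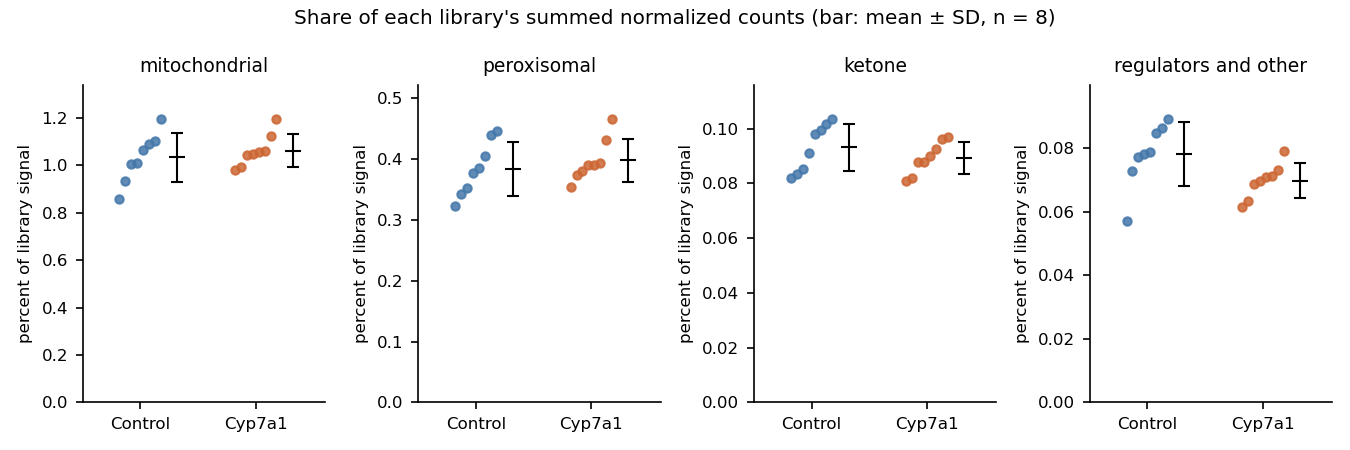
Summed normalized counts of each subset as a percent of the library total, by library (points), with mean and SD (bars, n = 8 each). The groups overlap in each subset, with 0.858% to 1.19% for the mitochondrial genes in controls and 0.978% to 1.20% in Cyp7a1-labelled livers. The shares of all 40 genes, which are not drawn, were 1.32% to 1.83% in controls and 1.495% to 1.76% in Cyp7a1-labelled livers.

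Counted together, the 85 further genes of these routes that were in the table, out of 92 listed, gave 9 higher and 2 lower (12.9%). Over all genes tested, 6.12% passed, 3.07% higher and 3.05% lower. The median log2 fold change of the 85 genes was 0.01. The lists were chosen with earlier results of these data known, so the counts are a description. Acot5, Acsl6, Cpt1b, Cpt1c, Hmgcll1, Oxct2a and Slc22a21 were not analysed here. Markers of the liver lobule, where oxidation is strongest near the portal vein, were mixed. Of 10 periportal markers Aldh1b1 rose (log2 fold change 0.65, limma adjusted p = 0.0254), and their median was 0.23; DESeq2 called 2 higher, Aldh1b1 and Sds. Of 10 pericentral markers Rhbg rose (0.71, limma adjusted p = 0.0236), and their median was -0.05. DESeq2 called 2 higher and 2 lower, Axin2, Nr1i3, Rhbg and Slc1a2. An unadjusted limma p under 0.05 was reached by 5 of the 10 periportal and 5 of the 10 pericentral markers, and by 2589 of all 12617 genes. Of 11 clock genes, which mark the time of day of sampling, 0 passed in limma, edgeR or DESeq2 and 1 had an unadjusted limma p under 0.05. The part of cell type markers, lobular position and time of day in the values above was not tested.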

How the data were processed

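The deposited table holds the authors' normalized counts, a signal per gene and library, for 12618 genes and 16 libraries. RNA was taken from flash-frozen liver and prepared with KAPA RNA HyperPrep, per the labels' protocols. The submitters' processing notes name mm10, STAR 2.7.11a, Trim Galore 0.6.10, DESeq2, R 3.6.3 and featureCounts, without their roles. Annotation, strand setting and gene selection: not given in the sources used here, so reads of overlapping genes cannot be told apart.

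Values were whole multiples of a step of 0.769 to 1.54, and dividing by it gave whole reads for at least 99.9% of values (tolerance 0.05 reads), used only in the count tests. Ccne2, with a text cell in 1 library, was left out, and 19 symbols turned into dates were restored from their gene IDs.

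The test was limma 3.58.1 in R 4.3.3 on log2(value + 1), with trend, two-sided, Benjamini-Hochberg adjusted over 12617 genes, threshold 0.05. Fold changes are on that scale, which understates those of low genes. A minimum mean of 10 removed no gene, the lowest being 13.3. The exact permutation tests ran over 12870 assignments. Coordinates and overlaps are from GENCODE M21 (mm10). The alternatives were quantile normalization, equal totals, array weights, a pseudocount of 8, a minimum mean of 50 or none, edgeR 4.0.16 and DESeq2 1.42.0 on recovered reads, each library left out, Control 20 and Cyp7a1 24 left out together, and a 1.5-fold minimum. The steps were tested on simulated data. The genes and lists were chosen with earlier results of these data known. Genes past the threshold, the 2 with the smallest p in each subset and a set named by role are given in full, and others by fold change or range. Some genes of these routes are not reported here.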

Additional observations from a re-analysis of the deposited data

Results flagged for a closer look

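By Dixon's 95% criterion, 6 of the 90 groups of 8 examined held a library far from the rest. For the genes the criterion was applied on the log2 scale, while the values below are printed as normalized counts. The groups were the 40 genes and 5 summed shares, each in controls and in Cyp7a1-labelled livers. Chance gives about 1 group in 20, or 4.5 groups here, so 6 is near that number. Control 20 had 3 of the 6. In it Crat lay at 1250.0 normalized counts against 2547 to 4233 in the other controls, Creb3l3 at 7286 against 8243 to 8827, and Vnn1 at 2012 against 3124 to 4474. In Control 38, the least deeply sequenced library, Etfa lay at 4578 against 5470 to 6247. Etfa kept its call without Control 38 and without Control 20, and lost it without any of the other 14 libraries. In the Cyp7a1-labelled group, Echs1 lay at 4742 in Cyp7a1 24 against 5235 to 5689, and Abcd3 at 11692 in Cyp7a1 36 against 14289 to 16109. The other values of these genes are given with the comparison above.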

How the results depend on the processing

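Quantile normalization and equal totals each left 1 of the 40 genes higher and 2 lower, in place of 3 and 3 (380 higher and 426 lower over all genes, and 263 and 372, in place of 387 and 385), and a 1.5-fold minimum left 0 and 0 (111 higher and 83 lower over all genes). With single libraries left out, 2 to 3 genes were higher and 0 to 3 lower, the latter 0 without Control 12, Control 16, Cyp7a1 24, Cyp7a1 28 or Cyp7a1 36 and 1 without Control 25, Cyp7a1 2, Cyp7a1 5 or Cyp7a1 17. Over all genes these counts were 230 to 399 higher and 245 to 414 lower, with 230 and 245 without Cyp7a1 28 and 256 lower without Control 16. At the 1.5-fold minimum all 6 calls were lost. Of the other 25 alternatives the call was kept in 24 for Abcd3, 23 for Hadhb (lost with equal totals, adjusted p = 0.0837, and without Control 20 and Cyp7a1 24), 15 for Acad11, 14 for Vnn1, 10 for Bdh1 and 8 for Etfa. No fold change of a called gene reversed. The median of the 40 genes stayed at 0.05 to 0.10. No paired analysis was possible because the groups share no replicate numbers. Depth limits Fgf21 most, with 10 reads in 1 library.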
